A study of Mus musculus with 2 samples.

Results

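The genes described here encode the proteins of the mitochondrial ribosome and of the machinery that carries proteins into mitochondria. They were chosen by symbol, with the ratios of these arrays already known when the group was proposed, as every probe set on the array annotated to exactly 1 gene whose symbol starts with Mrpl (large ribosomal subunit), Mrps (small subunit), Timm (import at the inner membrane) or Tomm (import at the outer membrane). A probe set is a group of short probes against 1 transcript. The rule found 206 probe sets for 100 genes, of 34945 probe sets for 18193 genes on the whole array: 47 Mrpl, 29 Mrps, 16 Timm and 8 Tomm genes. Of 104 protein-coding genes with such names in RefSeq, Mrpl30, Mrpl53, Tomm5 and Tomm6 had no such probe set, and 7 probe sets that also name another gene were left out.

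The samples were primary osteoblasts, the cells that form bone, grown from the skull vault (calvaria) of CD1 mice aged 7 days. Both cultures spent 24 h in medium with albumin in place of serum. The DMSO culture then received vehicle and the PP1 culture 2 µM PP1, an inhibitor of c-Src and related tyrosine kinases, each for 24 h. Each condition was 1 Affymetrix array, so there is no replicate, no test and no p-value, and each value describes these 2 arrays.

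Mitochondria keep a small genome that encodes core subunits of the respiratory chain. Ribosomes inside the organelle translate it, and their RNA is made there while their proteins are all encoded in the nucleus. Those proteins, like most of the organelle, are made in the cytosol and threaded through the TOM channel of the outer membrane. From there the TIM23 channel takes proteins with a cleavable leader into the matrix, the TIM22 channel places carriers in the inner membrane, and small Tim chaperones escort hydrophobic chains between the membranes. Osteoblasts draw on mitochondria while they build and mineralize matrix.

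Ribosomal and inner membrane import transcripts were slightly but widely lower with PP1, relative to the bulk of genes. The 7 outer membrane genes had a median near 0, with 5 of them below 0. Of 98 measured genes, 78 had a log2 ratio below 0, against 48.9% of all 12133 measured genes. The median log2 ratio of PP1 over DMSO was -0.22 for these 98 genes and 0.01 for all measured genes. The sizes were small: 8 genes were at least 1.5-fold lower and 1, Tomm40, was at least 1.5-fold higher. Across all measured genes 7.38% were 1.5-fold lower and 10.6% were 1.5-fold higher, so the share of 1.5-fold lower genes (8.16%) was near the background. The pattern lay in smaller ratios: past 0.32 in size on the log2 scale, 40 genes were lower and 4 higher, against 19.8% and 23.1% of all measured genes. At 2-fold 0 were lower and 0 higher, against 1.55% and 3.02%.

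For each gene the brightest probe set, by its mean over both arrays on the log2 scale, stands in the comparison. It counts as measured when it exceeds a floor of 31.7, the median signal of the array pair, on either array. Timm8a2 and Tomm20l were under that floor on both arrays. The PP1 array was multiplied by 1.68 to give both arrays the same trimmed mean, because as deposited it was dimmer overall. Without that step the median of all genes was -0.71. Then 97 of the 98 genes were below 0, against 92.4% of all genes, 88 were 1.5-fold lower, against 60.6%, and 0 were 1.5-fold higher, against 1.21%, so every direction given here is relative to other genes. Between different probe sets of the same gene the log2 ratio had an SD of 0.28 over 42 of these genes and 0.41 over 4745 genes of the whole array. The spread between cultures is unknown. The ratios are given as a description, since the group was proposed with them in view.

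Promoter sequences are shown for 6 genes that the results turn on: the import genes with low ratios Timm8a1, Timm10, Timm23 and Tomm70a, then Tomm40 and Mrpl45, the highest ratios of the outer membrane and large subunit classes. Each line holds the 150 bases before the annotated start, read on the strand of the gene from RefSeq's GRCm38.p6, with matches to the searched motifs in capitals. The genes were chosen after their values and matches had been seen: Timm23 and Tomm70a are shown because they hold the ETS core within the 150 bases printed. They stand in place of Mrps18b and Mrpl33, whose ratios were also low and whose ETS cores lie partly or wholly after the start. Mrpl47, Mrps28 and Mrps34 also had lower ratios than Timm23 and Tomm70a, and are not shown. Each of them had no match to a searched motif or no promoter sequence at hand. The windows are chrX:134541671-134541820 on the minus strand for Timm8a1, chr2:84826871-84827020 (plus) for Timm10, chr14:32201892-32202041 (minus) for Timm23, chr16:57121564-57121713 (plus) for Tomm70a, chr7:19715430-19715579 (minus) for Tomm40 and chr11:97315566-97315715 (plus) for Mrpl45.
Timm8a1: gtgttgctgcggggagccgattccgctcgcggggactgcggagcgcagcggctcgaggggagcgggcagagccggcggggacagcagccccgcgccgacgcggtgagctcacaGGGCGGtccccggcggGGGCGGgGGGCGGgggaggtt
Timm10: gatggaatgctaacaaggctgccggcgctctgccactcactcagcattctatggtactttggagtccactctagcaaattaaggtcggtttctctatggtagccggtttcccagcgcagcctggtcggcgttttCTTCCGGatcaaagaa
Timm23: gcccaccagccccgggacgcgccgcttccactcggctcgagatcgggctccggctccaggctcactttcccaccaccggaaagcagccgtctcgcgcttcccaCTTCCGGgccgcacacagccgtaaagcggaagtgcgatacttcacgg
Tomm70a: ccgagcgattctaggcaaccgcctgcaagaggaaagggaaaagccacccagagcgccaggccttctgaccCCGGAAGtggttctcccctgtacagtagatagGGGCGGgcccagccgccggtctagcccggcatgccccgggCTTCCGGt
Tomm40: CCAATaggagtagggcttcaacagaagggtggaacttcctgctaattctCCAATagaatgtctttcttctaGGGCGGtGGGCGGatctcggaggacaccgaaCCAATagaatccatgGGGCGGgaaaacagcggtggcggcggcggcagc
Mrpl45: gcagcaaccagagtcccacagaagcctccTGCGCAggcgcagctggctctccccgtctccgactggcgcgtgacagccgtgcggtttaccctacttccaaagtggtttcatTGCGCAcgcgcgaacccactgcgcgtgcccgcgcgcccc

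The capitals mark CCGGAAG or its reverse complement CTTCCGG, the core of ETS factors such as GABPA, in Timm10, Timm23 and Tomm70a, and GGGCGG, the GC box, in Timm8a1, Tomm40 and, between its ETS cores, Tomm70a. In Tomm40 they also mark CCAAT, the CCAAT box bound by NF-Y. In Mrpl45 they mark TGCGCA, the core repeated in sites of the respiratory factor NRF1. Motifs were searched on both strands over 300 bases, from 250 before to 50 after the start, and 88 of the 100 genes had such a window. The ETS core (CCGGAAG) was in 35 of the 88 genes (39.8%), against 19.5% of 9797 measured genes and 9.93% of all 27025 genes with a window. TGCGCA was in 26 (29.5%, against 15.8% and 8.79%). The YY1 motif ATGGCGG was in 15 (17.0%, against 9.16% and 4.69%). CACGTG, the E-box bound by Myc and USF, was in 10 (11.4%, against 11.8% and 8.09%), and GGGCGG in 44 of the 88, against 68.6% and 38.2%. CCAAT was in 32 (36.4%, against 42.7% and 41.1%). Matches to different motifs can share bases. For genes with more than 1 annotated start this was not counted window by window, so no count of overlaps is given. The NRF1 and YY1 strings are short forms. Longer forms were searched first and matched fewer windows, among these genes and among all genes, and were replaced after their shares had been seen. An ATF4-type motif was also looked at and is not reported here.

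Medians with and without each motif differed by less than 0.1 on the log2 scale. Measured genes with an ETS core had a median log2 ratio of -0.24 (34 genes, 27 below 0) and those without it -0.20 (52 genes, 40 below 0). With the NRF1 core the median was -0.20 (26 genes, 19 below 0) and without it -0.24 (60 genes, 48 below 0). For the E-box the medians were -0.28 (9 genes, 8 below 0) with and -0.22 (77 genes, 59 below 0) without. For the CCAAT box they were -0.28 (31 genes, 28 below 0) with and -0.21 (55 genes, 39 below 0) without, the widest gap in the share below 0 of the 6 motifs. The YY1 motif gave -0.26 (15 genes, 11 below 0) and -0.21 (71 genes, 56 below 0), and the GC box -0.22 (44 genes, 35 below 0) and -0.22 (42 genes, 32 below 0). A match is a string of letters, not a measured binding site.

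**Figure D1:**
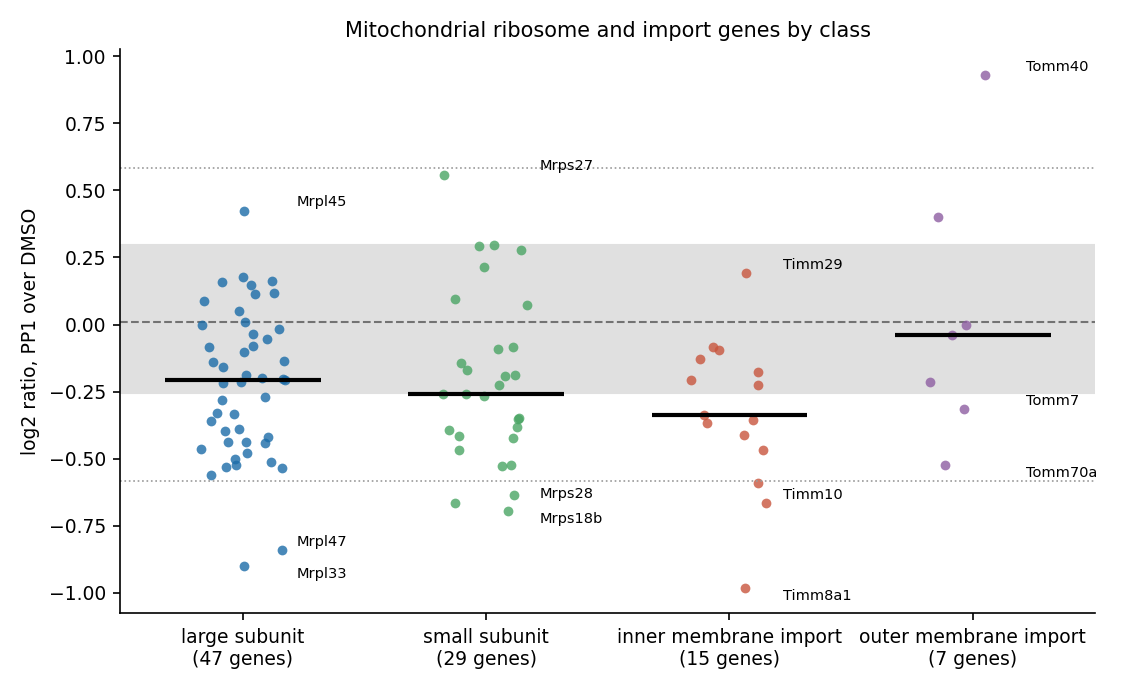
Log2 ratio of PP1 over DMSO (vertical axis) for each measured gene (points) in the 4 classes, with class medians as black bars, the median of all measured genes as a dashed line, their interquartile range as a grey band and 1.5-fold as dotted lines. The medians of -0.21, -0.26 and -0.34 for the large subunit, small subunit and inner membrane classes lie below that of all genes, and the outer membrane class is spread widely around -0.04.

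In the large subunit, 37 of 47 genes were below 0, with a median log2 ratio of -0.21 and an SD between genes of 0.28. The lowest was Mrpl33, a small protein with a bacterial counterpart, at 582.1 with DMSO and 311.9 with PP1, or 1.87-fold lower. Its other probe set, close to the floor, gave 0.15, so Mrpl33 was the only gene here whose probe sets differed by more than 1 on the log2 scale. Mrpl47 went from 264.5 to 147.7, 1.79-fold lower, and its other measured probe set was lower too (-0.46). These were the only large subunit genes past 1.5-fold, and none was 1.5-fold higher.

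Below them came Mrpl40, at 566.5 with DMSO and 384.3 with PP1, and Mrpl13, at 1008 and 696.1, with all 3 measured probe sets of Mrpl13 between -0.53 and -0.14. Mrpl52 had 4 measured probe sets, all lower (-0.56 to -0.24), and Mrpl15 had 5, also all lower (-0.54 to -0.12). The ratio of Mrpl12, a protein of the stalk where translation factors dock, was -0.27, from 475.1 to 394.0. At the other end stood Mrpl45, which lines the exit of the ribosome at the inner membrane, with 392.0 and 526.3, a log2 ratio of 0.42 from its only probe set. Mrpl48 (0.18), Mrpl49 (0.16) and Mrpl55 (0.16) followed, so the upper end of this class was closer to 0 than its lower end.

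Agreement between the probe sets of a gene differed by class. Of 24 large subunit genes with 2 or more measured probe sets, 14 had all of them below 0 and 2 had all above. In the small subunit 3 of 11 had all below 0, 2 all above and 6 were mixed. The inner membrane class had 5 of 7 all below 0, and the outer membrane class 2 of 5, with the other 3 mixed. Over the 4 classes 24 of 47 such genes had all probe sets below 0, against 19.7% of 5488 genes on the whole array, and 5 (10.6%) had all above 0, against 29.2%. Mixed cases include Mrpl44, a protein with a ribonuclease fold, whose 4 probe sets ran from -0.21 for the brightest to 0.71 for the dimmest.

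In the small subunit, 22 of 29 genes were below 0, with a median log2 ratio of -0.26 and an SD of 0.32. Mrps18b went from 421.1 to 260.2 (1.62-fold lower), Mrps28 from 491.5 to 310.2 (1.58-fold) and Mrps34 from 543.8 to 350.1 (1.55-fold). Each of these had 1 measured probe set. Mrps18b is 1 of 3 versions of a bacterial protein, and the other two were lower as well, Mrps18c at -0.52 and Mrps18a at -0.42.

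Mrps25 stood at -0.53 by its brightest probe set, from 317.3 to 220.0, and at 0.31 by a dimmer one. Higher small subunit genes were few. Mrps27 had the highest ratio, 0.56, but its signals of 32.5 and 48.0 lie next to the floor. Mrps6, which has a bacterial counterpart, went from 1225 to 1503, a log2 ratio of 0.30, and its other probe set gave a larger ratio, from 571.3 to 990.9 (0.79). Mrps23 was at 0.29, Mrps11 at 0.28 and Mrps7 at 0.21. With the shared probe sets left out, Mrps6 stood at 0.78 and became the second gene past 1.5-fold higher.

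The medians of the subunits differed by 0.05, and no replicate was at hand to set an error on that difference. Medians were also taken for proteins listed here as having a bacterial counterpart and for all others, Mrps28 among them. In the large subunit these were -0.27 (29 genes, 23 below 0) and -0.21 (18 genes, 14 below 0), and in the small subunit -0.26 (17 genes, 12 below 0) and -0.24 (12 genes, 10 below 0). Mrps18a and Mrps30 sit in the large subunit in known structures in spite of their names, and Mrps36 is now known as a part of the oxoglutarate dehydrogenase complex. Their ratios were -0.42, -0.27 and -0.08.

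**Figure D2:**
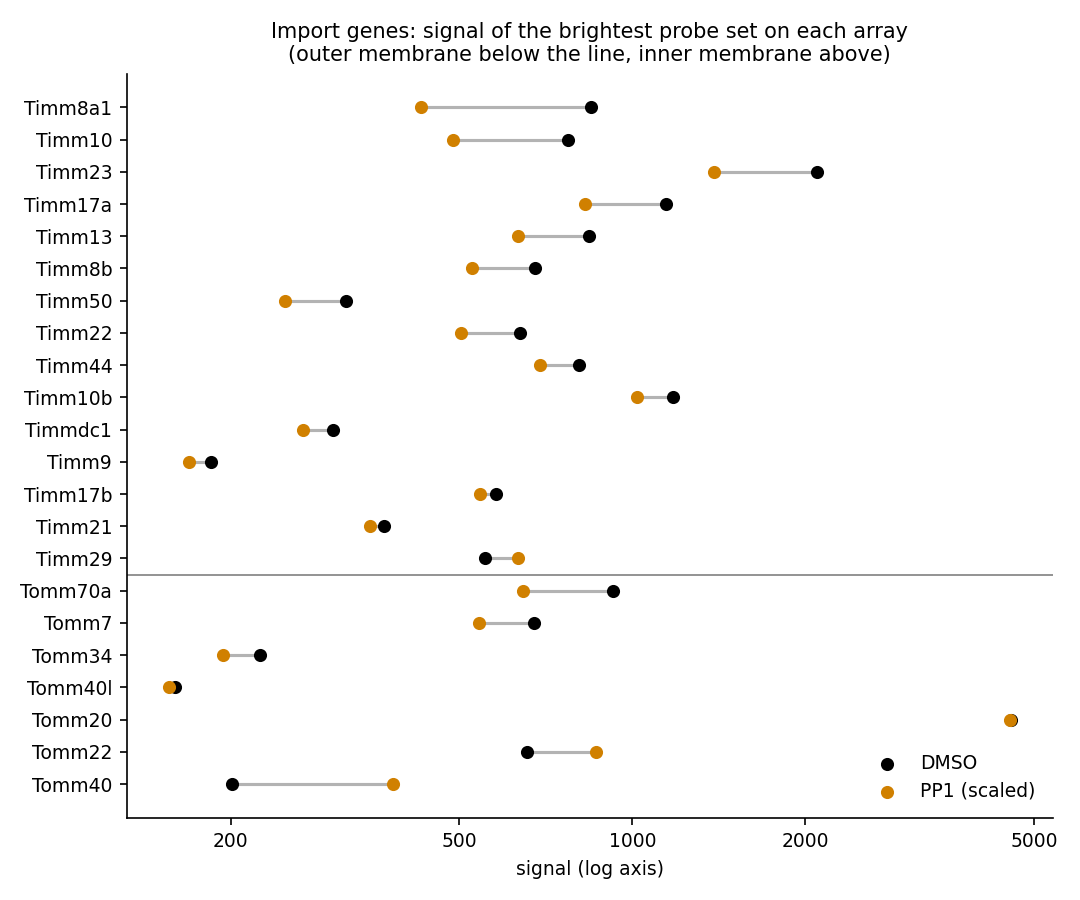
Signal on each array (horizontal log axis) for the measured import genes, black for DMSO and orange for PP1 after scaling, each from the gene's brightest probe set. Inner membrane genes are above the line and all but Timm29 have the lower signal with PP1, while below the line Tomm40 and Tomm22 have the higher signal with PP1.

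Inner membrane import genes had the lowest class median, -0.34 (SD 0.28), with 14 of 15 measured genes below 0 and 3 at least 1.5-fold lower. Timm8a1, a small Tim chaperone whose human counterpart is mutated in a deafness and dystonia syndrome, had the lowest ratio of all 98 genes. Its signal was 846.0 with DMSO and 428.7 with PP1, or 1.97-fold lower. The other probe set went from 298.3 to 147.4, a log2 ratio of -1.02, so 2 separate probe sets gave nearly the same value.

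All 6 measured small Tim chaperones were below 0, with a median of -0.39. Timm10, which forms a ring with Timm9, went from 773.7 to 487.6 (1.59-fold lower), while Timm9 itself was at -0.13 (184.7 against 168.9). Timm13, the partner of Timm8a1, stood at -0.41 (840.1 against 631.4). The log2 ratio of Timm8b was -0.37, and that of Timm10b, which docks the chaperones on the TIM22 channel, was -0.21, with 3 measured probe sets from -0.39 to -0.14. Timm10 and Timm9, members of 1 ring, thus had unlike ratios, but each of these values rests on 1 measured probe set. No replicate was at hand to set an error on that gap.

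The 6 genes of the TIM23 channel and its motor were all below 0 as well, with a median of -0.29. Timm23, the channel itself, went from 2092 to 1390 (1.51-fold lower). Its partner exists in 2 versions: Timm17a was at -0.47 (1143 against 825.6) and Timm17b at -0.10 (579.3 against 541.9). Timm50, the receptor that receives the leader, stood at -0.36, with its other measured probe set at -0.47. The motor anchor Timm44 had all 3 probe sets between -0.27 and -0.19, and the coupling subunit Timm21 was at -0.09.

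The TIM22 channel did not show the same pattern. Timm22, the channel protein, was at -0.34 by its brightest probe set (636.6 against 503.8) and at 0.01 by the other. Timm29, a subunit of the TIM22 complex, was the only inner membrane gene above 0, at 553.2 with DMSO and 632.1 with PP1 (log2 ratio 0.19), and 0.68 by its other probe set. Timmdc1, which shares the name but works in the assembly of respiratory complex I, stood at -0.18.

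At the outer membrane the 7 measured genes ranged from -0.52 to 0.93, with a median of -0.04 (SD 0.49) and 5 of 7 below 0. Tomm40, the pore of the TOM channel, went from 200.7 to 382.6, or 1.91-fold higher, by its only probe set. Tomm22, the central receptor that joins the pores, was at 0.40 (654.7 against 863.4), though its other probe set gave -0.11.

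The carrier receptor Tomm70a was at the other end, with 925.6 and 644.0 (log2 ratio -0.52), and all 4 measured probe sets were lower (-0.71 to -0.34). The small TOM protein Tomm7 was at -0.31, its 3 measured probe sets from -0.43 to 0.13. Tomm20, the receptor for cleavable leaders, was equal by its brightest probe set, with 4552 and 4547. Its next brightest went from 3315 to 2537 and from 2601 to 2100, ratios of -0.39 and -0.31, and the 6 probe sets ran up to 0.09. Tomm34, a cytosolic co-chaperone, was at -0.22, and Tomm40l, a second version of the pore, at -0.04. Taking the median over probe sets of each gene brought the outer membrane median to -0.23, close to the other classes, so the contrast of inner and outer membrane (0.30 between the class medians) depends on how probe sets are combined. With 7 genes, 1 ratio can set this median.

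**Figure D3:**
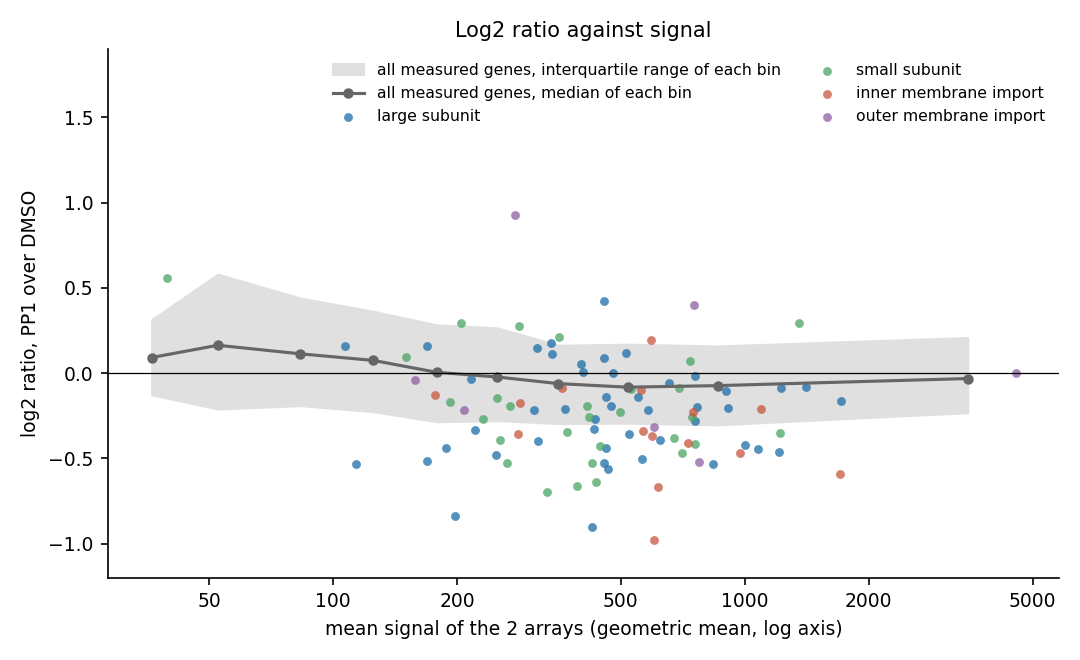
Log2 ratio of PP1 over DMSO (vertical axis) against the geometric mean signal of both arrays (horizontal log axis), with the genes coloured by class. The grey line and band are the median and interquartile range of all measured genes in 10 bins of equal size, and 74 of the 98 genes lie below the median of their bin.

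Measured genes in the signal bins from 212.2 upward were slightly lower as a whole, with bin medians from -0.08 to -0.02. The classes were therefore also set beside genes of like signal. The 4924 measured genes between the 10th and 90th percentile of these genes' mean signal, 195.9 to 1023, had a median log2 ratio of -0.07, and 56.9% of them were below 0. The 98 genes lay 0.15 below that median. In each of the 7 signal bins that held 2 or more of them, their median was below that of all genes in the bin, by 0.09 to 0.26. Removing the trend with a loess curve left medians of -0.13, -0.17, -0.25 and -0.10 for the large subunit, small subunit, inner and outer membrane classes.

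**Figure D4:**
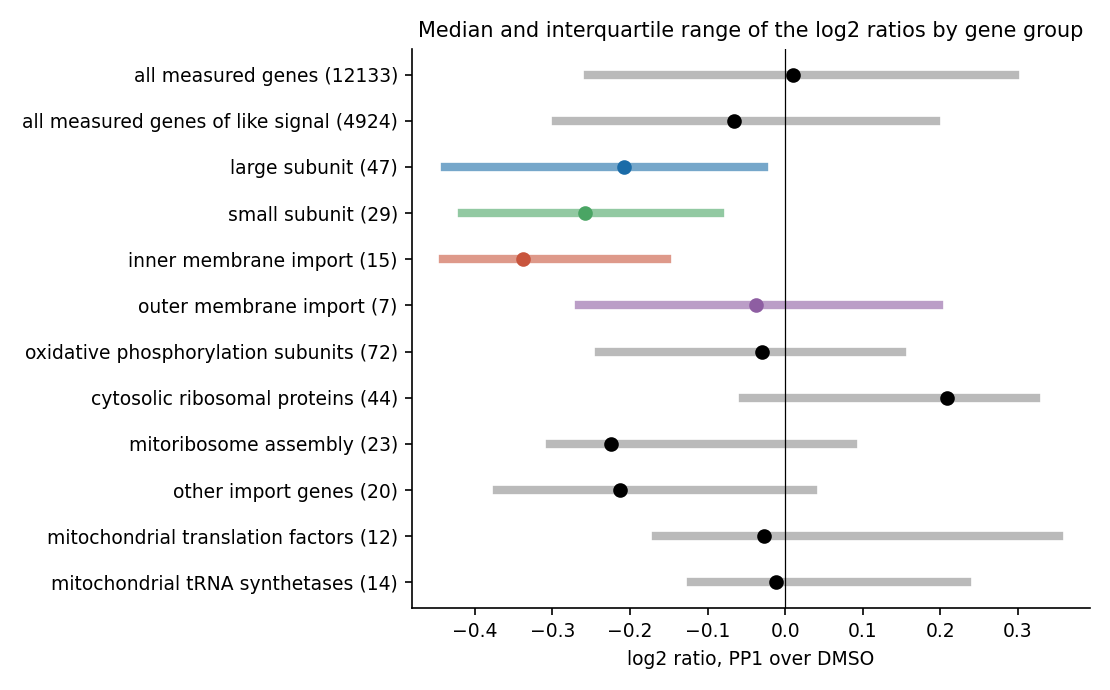
Median (points) and interquartile range (bars) of the log2 ratio of PP1 over DMSO for each gene group, with the number of measured genes in brackets. The mitochondrial ribosome, inner membrane import, assembly and other import groups have medians from -0.34 to -0.21, whereas cytosolic ribosomal proteins lie at 0.21 and oxidative phosphorylation subunits at -0.03.

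Genes that work beside these proteins were mixed. Other mitoribosomal proteins under unrelated names were all below 0 by their brightest probe sets: Dap3 at -0.16, Chchd1 at -0.12, Gadd45gip1 at -0.10 and Ptcd3 at -0.38, with 0.41 by the other probe set of Ptcd3. In the list of other import genes 15 of 20 were below 0 (median -0.21), 1 was 1.5-fold lower and 2 were 1.5-fold higher. Grpel1, the exchange factor of the import motor, went from 554.7 to 355.2 (log2 ratio -0.64). Oxa1l, the insertase that receives chains from the mitochondrial ribosome, went from 154.8 to 272.6 (0.82, but -0.01 by its other probe set), and the TIM22 subunit Agk from 109.3 to 177.3 (0.70, and 0.10 by the other).

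Among mitoribosome assembly factors 16 of 23 were below 0, with a median of -0.22. Fastkd2, an RNA-binding protein, was at -0.80 (181.9 against 104.1), with its 3 probe sets from -1.28 to -0.22. The RNA methyltransferases Mrm1 and Mrm2 went opposite ways from dim signals, Mrm1 at -0.72 or lower (52.4 with DMSO, under the floor with PP1) and Mrm2 at 0.79 (40.1 against 69.5). Fastkd2 and Mrm1 were the 2 genes of this list past 1.5-fold lower, and Mrm2 the 1 past 1.5-fold higher.

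Translation factors of the organelle did not lean either way, with 6 of 12 below 0 and a median of -0.03. The elongation factor Gfm1 was at -0.62 (565.4 against 368.6), with -0.17 by its other probe set. Tufm was at -0.53 (309.0 against 214.5), with 0.09 by the other, and Guf1 was at 0.51 from a dim signal. The mitochondrial tRNA synthetases likewise had 7 of 14 below 0 and a median of -0.01. The largest ratios were those of Vars2 (1.12, from 38.4 to 83.3, and 0.57 by its other probe set), Fars2 (0.63, but 0.08 by its other) and Hars2 (0.30, but -0.09 by its other). Vars2 and Fars2 were the 2 genes of that list past 1.5-fold higher, and none was 1.5-fold lower.

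Of 11 regulators of mitochondrial genes, 8 were below 0 (median -0.18), with 2 past 1.5-fold lower and 1 past 1.5-fold higher. They include Tfam (-0.57), Tfb2m (-0.35) and Polrmt (-0.24), which serve the genome of the organelle itself, not nuclear genes. Myc went from 493.5 to 243.7 (log2 ratio -1.02), and Pprc1, a coactivator of the PGC-1 family induced by growth signals, from 500.1 to 256.7 (-0.96). Ppargc1a, the family's founding member, was higher by at least 1.15 on the log2 scale, from under the floor to 70.2, with 0.59 by its other probe set. Among other factors whose motifs were counted above, Gabpa was at -0.12, Nrf1 at -0.18 and Yy1 at -0.16, near the median of this list. The 3 measured probe sets of Nrf1 ran from -0.29 to 0.13 and the 4 of Yy1 from -0.26 to 0.39. NF-Y and USF are not in the list. The motif of Myc is the E-box.

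The cytosolic ribosome differed in direction from the mitochondrial one. Only cytosolic ribosomal protein genes found by symbol with a probe set naming 1 gene were counted, 46 in all, 44 of them measured. Those 44 had a median of 0.21 with 12 below 0, and ran from -0.73 to 1.83. Both mitochondrial subunits together had a median of -0.22 with 59 of 76 below 0. Most cytosolic ribosomal probe sets were far brighter, with a median DMSO signal of 6047 against 486.7. Oxidative phosphorylation subunits lay between, with a median of -0.03 and 42 of 72 below 0. They were brighter too, with a median DMSO signal of 1835, and all measured genes in the brightest signal bin also had a median of -0.03. Within these subunits complex I (-0.16, 23 of 34 below 0) and complex III (-0.19, 6 of 8) were lower in median than complex IV (0.07, 3 of 9) and ATP synthase (0.06, 8 of 17). With 1 array a condition none of these differences could be tested.

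Osteoblast genes were detected beside markers of other cells. Col1a1 had signals of 7558 and 9931, Alpl 187.5 and 242.3, Sp7 71.6 and 53.3, and Ibsp 159.1 and 37.7 with DMSO and PP1, while the osteocyte genes Dmp1 and Phex were under the floor. No probe set was found here under the names Runx2, Bglap and Spp1. All 9 macrophage markers were measured, with summed signals of 13867 with DMSO and 16601 with PP1, and 7 of the 9 had a ratio above 0. The 4 adipocyte markers found here summed to 3738 and 7090, all with ratios above 0. The 5 cartilage markers summed to 5072 and 4572, mostly from Col2a1 (3503 and 3172). Acan was 2.27-fold lower, Sox9 was at 0.47 on the log2 scale and Matn1 was under the floor on both arrays. Skeletal muscle markers summed to 859.7 and 980.4, with Ckm under the floor on both arrays and Acta1 (521.0 and 426.2) as the largest part. Of the 5 measured, 4 were above 0 (median 0.64) and 3 were past 1.5-fold higher, all from dim signals: Des (39.4 to 105.9), Myog (from under the floor to 81.8) and Myod1 (from under the floor to 49.4). Endothelial markers summed to 95.4 and 152.3, with Pecam1 and Tie1 under it. In such bulk RNA, fewer cells of a type and less RNA per cell cannot be told apart. Control probe sets at the 3' and 5' ends of a transcript report on RNA quality. Their log2 ratio, 3' over 5', was -0.51 (Gapdh), -0.34 (Pcx) and 0.14 (Actb) relative to DMSO on the PP1 array. The part of cell mixture, overall brightness and RNA quality in the lower mitochondrial ratios was not tested.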

How the data were processed

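Expression in 1 DMSO and 1 PP1 culture was measured on Affymetrix arrays from total RNA extracted with Trizol, per the labels' protocols. The deposited values are linear intensities per probe set made with MAS5, per the submitters' processing notes. Its version and target, and the build, are not stated there. Of 45037 non-control probe sets, 34945 had 1 gene in the platform annotation (34741 matched a RefSeq GRCm38.p6 gene by identifier, among them all 206 used here), 932 several and 9160 none here.

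PP1 signals were multiplied so that means trimmed by 2% at each end were equal (158.1 and 94.1 as deposited), values under the floor were set to it, and log2 was taken. Where either array is at the floor, the ratio is a bound. Simulated data were used to check the recovered scale, the shift of the members and the calls of strongly lowered genes. No requirement was set there on calls at 1.5-fold or on calls of unaltered genes. The members, gene lists and thresholds were chosen with earlier results of these data known, so their ratios are a description. The motifs and the promoters shown were also chosen after values had been seen. All genes of the rule could be named, with those in full chosen by class extremes, signal and complex. Alternatives covered scaling, floor, probe set choice, fold and class. The number of arrays limits the precision. The work used Python 3.11.15, pandas 2.3.3, scipy 1.17.1 and statsmodels 0.14.6.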

Additional observations from a re-analysis of the deposited data

How the results depend on the processing

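As deposited, 88 of the 98 genes were at least 1.5-fold lower and 0 higher (60.6% of all genes lower), and scaled to 18 bacterial control probe sets 91 were lower and 0 higher (66.9%), where the median of all genes was -0.71 and -0.79. At a threshold of 0.32 in size on the log2 scale 40 genes were lower and 4 higher, against 19.8% and 23.1% of all measured genes, and at 2-fold 0 were lower and 0 higher (1.55% and 3.02%). Without shared probe sets 2 were higher. Shifted to the same median of all genes, the class medians stayed below 0 under each alternative, from -0.25 to -0.13 for the large subunit, -0.30 to -0.17 for the small subunit, -0.38 to -0.25 for the inner membrane and -0.23 to -0.00 for the outer membrane. The last of these, the value of Tomm20, came from an alternative added after the data were seen, TOM subunits only. Of 333 values of 42 named genes under the alternatives, 5 moved by more than the SD between probe sets and 0 past 1.5-fold changed sign. Values as deposited, centred on the median or scaled to bacterial controls differ by a constant that the shift takes out. Neither these gene values nor the class medians could move much under those settings, so they add little to these counts. No paired analysis was possible because each condition has 1 array.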
